A study of Camellia sinensis with 12 samples.

Results

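Withering is the step in which plucked tea shoots are spread out and lose water before further manufacture, and its first 9 h are described here. The comparison set the 3 leaf libraries taken at 9 h against the 3 taken at 0 h, which are 6 of the 12 libraries of the series, and it covered every gene of the table: of 52332 genes, 33268 had a count in at least 1 library and 26712 had enough counts to be tested. Both groups were leaves of tea (Camellia sinensis) of the cultivar Longjing43, plucked as a bud with its youngest leaves and kept at 25°C and 65% relative humidity. The 9 h leaves had been withered for 9 h and the 0 h leaves for none, and further libraries were taken at 15 and 24 h. The light is 0 lux in the sample labels and 2000 lux in the methods of the study. No unwithered leaves were sampled at 9 h, so withering, the hour of the day and the time since plucking cannot be told apart. No source used here tells if the 3 libraries of 9 h, or those of 0 h, were made from separate lots of shoots, and the p-values thus rest on a spread that may be only technical.

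A plucked leaf stays alive for many hours. It goes on respiring while water, light, sugar supply and hormones change, and abscisic acid (ABA), the hormone that plants make when they dry, closes the stomata and turns on genes for protective proteins and sugars. Photosynthesis genes in the nucleus are transcribed according to light, sugar and the circadian clock. Aroma, taste and colour of the finished tea come in part from terpenes, fatty acid products, amino acids and catechins that the withering leaf makes or breaks down.

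In the first step, 7240 genes (27.1% of the 26712 tested) were higher at 9 h and 7166 (26.8%) lower, so 53.9% of genes passed an adjusted p of 0.05 in edgeR's quasi-likelihood test, and the libraries of the 2 times did not overlap for 67.0% of genes. Levels are in CPM, which put the counts of a gene on a common library total after TMM scaling, a correction for the makeup of each library. CPM are not divided by gene length, so the gene with the most counts is not thereby the one with the most transcripts. Changes are given as the log2 of the ratio of 9 h over 0 h with the standard error (SE) of the fit, and stand in brackets after the levels or after the word changed. The median change was -0.02 over all genes, 0.96 among the higher genes and -0.997 among the lower ones. Large changes leaned to one side: 3503 genes were more than 2-fold higher and 3575 more than 2-fold lower, but 732 were more than 8-fold higher against 436 lower, and 252 were more than 32-fold higher against 110 lower. These numbers include genes of few counts, and large changes were not counted above a set level. Among genes with a mean of at least 1 CPM at either time, 6756 were higher and 7115 lower by any amount. With library size as the only scaling, the median moved to -0.224 and the share of higher genes among those called to 37.9%, against 50.3% with TMM, so a direction within about 0.20 of zero depends on the scaling. Of 4358 tested genes with no description, 972 were higher and 1068 lower.

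The libraries held 83365579 to 118261728 counts at 9 h and 64931031 to 85190458 at 0 h, and each library lay nearest to another of its own time. The 10 genes with the most counts took 4.98 to 5.54% of the counts at 9 h and 3.8 to 4.48% at 0 h. Of 23 tested leaf mesophyll markers, 9 were higher and 6 lower, and their summed level was 4003 to 6089 CPM at 9 h and 12034 to 18856 CPM at 0 h, most of it a small chain of rubisco. Root markers (10 genes, 4 higher and 3 lower) summed to 478 to 508 CPM at 9 h and 375 to 415 CPM at 0 h, and flower and pollen markers (44 genes, 9 higher and 10 lower) to 402 to 431 CPM at 9 h and 455 to 476 CPM at 0 h. The part of a changed mix of cells in these results was not tested, and in a bulk sample fewer cells of a type cannot be told apart from less RNA per cell. Genes were gathered by the words of their descriptions into 62 lists by function, which held 8474 of the tested genes. More members were higher than lower in 31 lists, and more lower than higher in the other 31.

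**Figure D1:**
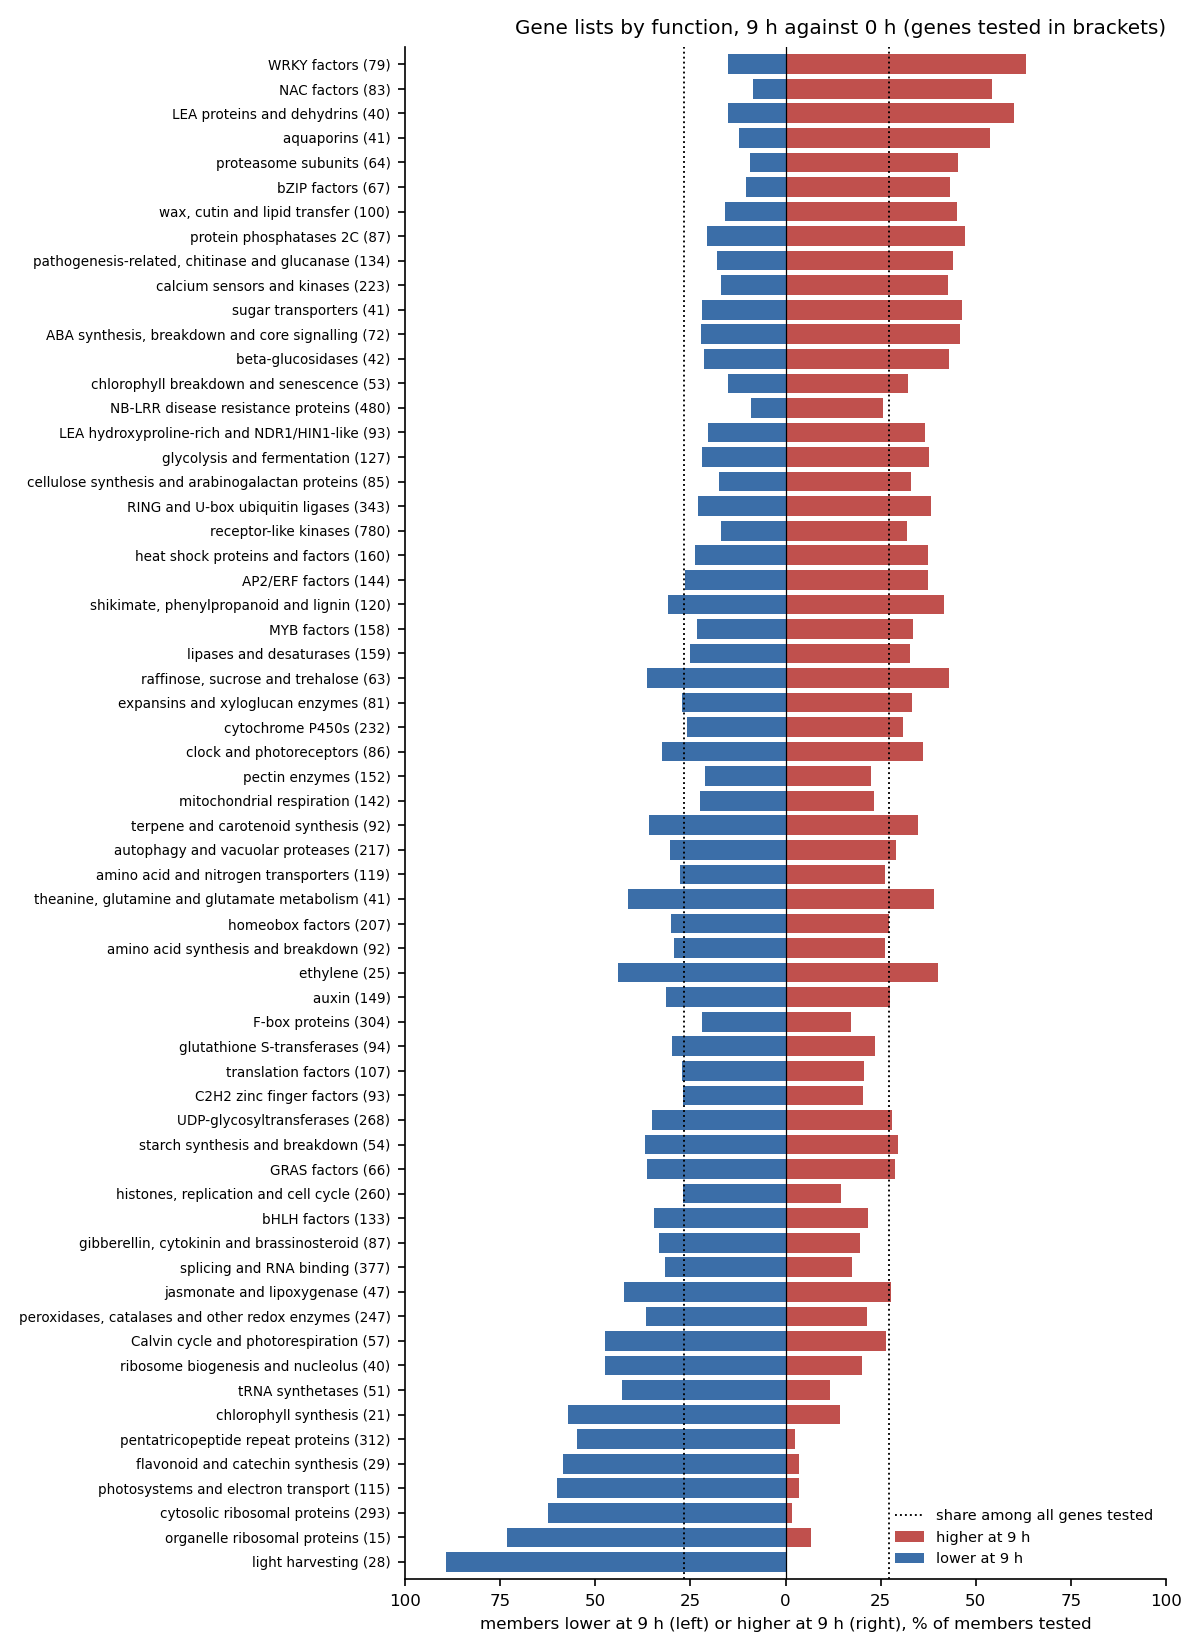
Share of the tested members of each of the 62 lists that were lower (left, blue) or higher (right, red) at 9 h than at 0 h, with dotted lines at the shares among all genes tested, 26.8 and 27.1%. Light harvesting, ribosomal protein, photosystem and flavonoid genes stand at the lower end, and NAC, WRKY and LEA genes at the higher end. With library size as the only scaling, the majority turned to lower in the lists for RING and U-box ligases, clock, cytochrome P450s, expansins, glycolysis, heat shock, mitochondrial respiration, pectin enzymes and proteasome.

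Antenna genes were lower at 9 h in nearly every case. Of 28 tested light-harvesting genes, whose proteins hold the antenna chlorophyll of both photosystems, 25 were lower and 0 higher, with a median of -2.11 against -0.02 over all genes. Their summed level was 1832, 1825 and 1757 CPM at 9 h, against 8625, 9690 and 9589 CPM at 0 h, so the groups lay far apart. The 3 that did not pass were MSTRG.30137 (187 CPM at 9 h and 216 CPM at 0 h, edgeR adjusted p = 0.322) and the near-silent MSTRG.2081 and CSS021240 (edgeR adjusted p = 0.388 and 0.994). Within the family the size of the fall varied widely. Light-harvesting protein 5 of photosystem II (MSTRG.12299), the member with the most counts, was at 231, 211 and 198 CPM at 9 h, against 1391, 1688 and 1673 CPM at 0 h (-2.89, SE 0.18 on the log2 scale). A chlorophyll A/B binding protein 1 gene (MSTRG.24347, Scaffold30, 1797028 to 1797813, plus strand, as the table gives it) fell much further, with 8.24, 8.6 and 8.11 CPM at 9 h, against 635, 659 and 677 CPM at 0 h. A second pair of genes of that description, MSTRG.46003 and MSTRG.46001, lies on 1 scaffold, and both fell, by log2 fold changes of -4.77 (SE 0.25) and -4.33 (SE 0.15). Their sequences were not compared, and if they are close copies that share reads, the value of a single gene is uncertain. The largest fall of the list, -7.04 (SE 0.20), was that of a photosystem I antenna gene (MSTRG.44696), whose gene model overlaps another.

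Of 115 genes of the photosystems and of electron transport, 69 were lower and 4 higher (median -0.80), and their summed level was 8116 to 8508 CPM at 9 h and 19058 to 20626 CPM at 0 h. Subunit O-2 of photosystem II (MSTRG.8250), which shields the manganese cluster that splits water, was at 28.2, 29.7 and 27.1 CPM at 9 h, against 378, 383 and 379 CPM at 0 h, or -3.75 (SE 0.25) on the log2 scale. Subunit R of photosystem II (MSTRG.36763), of the same water-splitting side, fell less, with 640.1, 689.8 and 726 CPM at 9 h, against 2118, 2154 and 2395 CPM at 0 h (-1.70). Subunit P of photosystem I (MSTRG.40666) changed by -2.58 (SE 0.17). The 4 higher genes were both genes for proton gradient regulation 5, which in Arabidopsis serves cyclic electron flow around photosystem I, and a pair for subunit H of NAD(P)H dehydrogenase. Of the proton gradient regulation 5 genes, MSTRG.13816 was at 40.3, 42.7 and 45.4 CPM at 9 h, against 5.74, 5.58 and 7.56 CPM at 0 h (2.77, SE 0.14), and MSTRG.22891 averaged 118 ± 13.2 CPM at 9 h and 61.1 ± 2.18 CPM at 0 h (SD, n = 3 each). The subunit H genes MSTRG.3051 and MSTRG.22467 were below 1 CPM in the means of both times (edgeR adjusted p = 0.0375 and 0.0397), and neither kept that call under the replicate block or when replicate 1 or 3 of 0 h was left out. The named water-splitting genes were thus lower in each 9 h library than in any 0 h library, while MSTRG.13816 was higher in each.

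Carbon fixation divided by gene. Of 57 genes of the Calvin cycle and photorespiration, 27 were lower and 15 higher (median -0.35). The small chain 1A of rubisco, the enzyme that fixes CO2 (MSTRG.12209), was at 2764, 4771 and 4854 CPM at 9 h, against 8626, 15151 and 14292 CPM at 0 h, or -1.62 (SE 0.22) on the log2 scale. Replicate 1 of each time was the lowest, and the groups did not overlap. Rubisco activase keeps that enzyme open for its substrate, and its 3 tested genes went opposite ways. MSTRG.18095 fell to 819, 805 and 775 CPM at 9 h, against 3272, 3391 and 3311 CPM at 0 h, and MSTRG.48754 was lower as well (-1.07, SE 0.11), while MSTRG.46674 (Scaffold786, 297712 to 301470, plus strand) rose, with 612, 566 and 557 CPM at 9 h, against 6.46, 6.4 and 6.5 CPM at 0 h. The rise did not last in the later libraries, where MSTRG.46674 averaged 129 CPM at 15 h and 5.84 CPM at 24 h. Subunit A of the plastid glyceraldehyde 3-phosphate dehydrogenase (MSTRG.22107) changed by -1.74 (SE 0.13), and carbonic anhydrase 2 (MSTRG.9189), which speeds the exchange of CO2 and bicarbonate, by -4.01 (SE 0.11).

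Of 21 genes of chlorophyll synthesis, 12 were lower and 3 higher (median -0.59). Protochlorophyllide oxidoreductase A (MSTRG.28067), which makes the light-driven step, was at 7.18, 6.95 and 6.58 CPM at 9 h, against 58.6, 64.4 and 62.9 CPM at 0 h (-3.16, SE 0.26). A geranylgeranyl reductase gene (MSTRG.19461), for the side chain of chlorophyll, was at 2.51, 2.63 and 2.27 CPM at 9 h, against 68.3, 16.2 and 62 CPM at 0 h, with a wide spread at 0 h but no overlap. The 3 higher genes were MSTRG.1314 for glutamyl-tRNA reductase, the first committed step of the pathway, which was at 245, 237 and 230.4 CPM at 9 h, against 38.2, 42.5 and 43 CPM at 0 h (2.52, SE 0.08), MSTRG.15931 for a subunit of magnesium chelatase (1.21, SE 0.12) and MSTRG.33252, a second geranylgeranyl reductase gene (0.56, SE 0.12, edgeR adjusted p = 0.00127). Of 53 genes named for chlorophyll breakdown and senescence, 17 were higher and 8 lower (median 0.23). Senescence-associated gene 21 (MSTRG.51524), a member of the late embryogenesis abundant proteins in Arabidopsis, had high counts at both times, with 3918, 4546 and 4430.4 CPM at 9 h, against 2827, 2439.5 and 2745 CPM at 0 h (0.69, SE 0.10). A gene named for senescence and dehydration (MSTRG.39739) changed by 2.63 (SE 0.06), and senescence-related gene 1 (MSTRG.51425) by -3.36 (SE 0.15).

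Clock and light-signalling genes moved in both directions and by large amounts. Of 86 tested, 31 were higher and 28 lower (median -0.05), and with library size as the only scaling 26 were higher and 34 lower. Several genes that act by day and in the evening in Arabidopsis were low at 9 h. Pseudo-response regulator 7 (MSTRG.35247), a repressor in the clock, was at 8.08, 9.4 and 8.99 CPM at 9 h, against 179.7, 246 and 178 CPM at 0 h (-4.51, SE 0.18), and the light sensor FKF1 (MSTRG.20180) changed by -3.46 (SE 0.08). GIGANTEA, which works with that sensor, fell in both of its genes, MSTRG.25319 and MSTRG.13979, by -4.23 (SE 0.09) and -3.40 (SE 0.16). Cycling DOF factor 2 (MSTRG.16544, Scaffold2205, 2027571 to 2028915, plus strand) is a kind of repressor that FKF1 and GIGANTEA remove in Arabidopsis, and it was at 46.6, 45.4 and 42.8 CPM at 9 h, against 1.01, 0.943 and 0.842 CPM at 0 h, or 5.59 (SE 0.12) on the log2 scale. CONSTANS-like 2 (MSTRG.39340) and a B-box zinc finger gene (MSTRG.6768) changed by 3.35 (SE 0.12) and 4.25 (SE 0.14). FKF1 and both GIGANTEA genes thus fell together by 9 h, and the gene for this kind of repressor stood on the opposite side. For clock genes above all, the hour of the day cannot be told apart from withering.

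**Figure D2:**
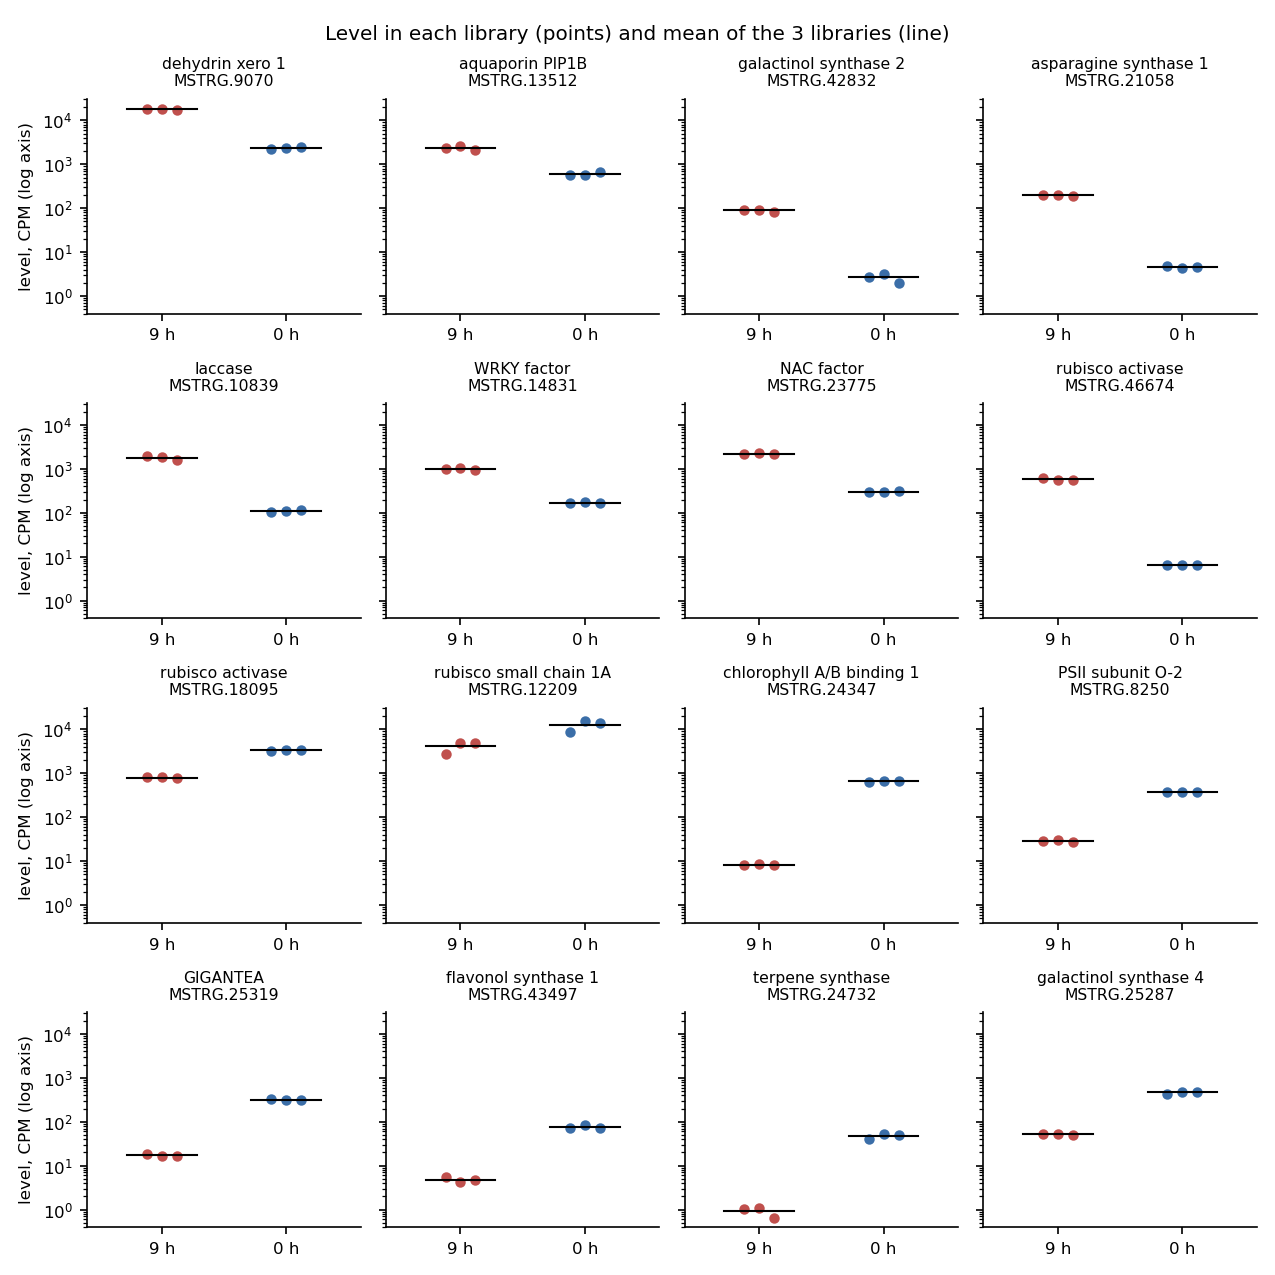
Level in each library, in CPM on a log axis, of 16 genes at 9 h (left) and 0 h (right), with lines at the mean of 3 libraries. In each panel the 3 libraries of 9 h lie wholly above or wholly below those of 0 h, and the 2 rubisco activase genes shown move in opposite directions.

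Genes for ribosomal proteins were lower, by small steps in many genes. Of 293 genes for ribosomal proteins outside the organelles, 183 were lower and 5 higher (median -0.49). Their summed level was 17110, 17570 and 17950 CPM at 9 h, against 23954, 24118 and 26084 CPM at 0 h. Large subunit protein 27 (MSTRG.12265) was at 88.8, 95 and 110.3 CPM at 9 h, against 307, 277 and 341 CPM at 0 h (-1.65, SE 0.13), and the gene of the list with the most counts (MSTRG.42403), of the S5 and elongation factor G family, did not pass (-0.06, SE 0.06, edgeR adjusted p = 0.448). The 5 higher genes were all of the L34e superfamily (MSTRG.12952 and MSTRG.43824, 1.49 (SE 0.11) and 0.86 (SE 0.13)) or the L18ae family (MSTRG.1392, MSTRG.4046 and MSTRG.45199, between 0.47 and 1.43). Ribosomal proteins of plastids and mitochondria were lower in 11 of 15 genes and higher in 1, the putative 30S protein gene MSTRG.28842 (0.96, SE 0.08). A plastid-specific 50S protein (MSTRG.27327) changed by -1.55 (SE 0.17). Genes for tRNA synthetases, which load amino acids onto tRNAs, were lower in 22 of 51 and higher in 6, and those for ribosome biogenesis lower in 19 of 40 and higher in 8. Translation factors were lower in 29 of 107 (27.1%, close to the share among all genes) and higher in 22.

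Genes for proteins that handle RNA in organelles were lower as well. Pentatricopeptide repeat (PPR) proteins bind single transcripts of plastids and mitochondria and edit, splice or stabilize them. Of 312 tested, 171 were lower and 8 higher (median -0.91). Their summed level was 1684 CPM at 9 h and 2547 CPM at 0 h in the means of 3 libraries, so these are genes of low counts. One PPR gene (MSTRG.34534) was at 3.77, 4.67 and 3.31 CPM at 9 h, against 32.8, 39.5 and 37.7 CPM at 0 h (-3.23, SE 0.20, with a gene model that overlaps another). The member with the most counts (MSTRG.17964) went the other way, at 92.8, 101 and 109 CPM at 9 h, against 64.3, 70.6 and 74.8 CPM at 0 h (0.53, SE 0.08). Other families of that kind leaned to the same side, and are named after their values were seen: among 175 families of at least 15 genes with 1 shared description, the mitochondrial transcription termination factors were lower in 24 of 36 and higher in 0 (median -0.68), and the pseudouridine synthases, which modify RNA, lower in 10 of 16.

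Of those families, the one with the largest share of lower genes had another function by name. Genes described as wound-responsive family proteins were lower in 17 of 22 and higher in 2, with a median of -3.62. The one with the most counts among the short gene models (MSTRG.45297, Scaffold730, 8424 to 8723, minus strand) was at 10.8, 13.1 and 10.6 CPM at 9 h, against 208, 189 and 205 CPM at 0 h, or -4.12 (SE 0.18) on the log2 scale. It averaged 44.7 CPM at 15 h and 5.92 CPM at 24 h. Gene MSTRG.30610 was at 0.215, 0 and 0.252 CPM at 9 h, against 8.27, 6.83 and 7.94 CPM at 0 h (-5.58, SE 0.69), and so was all but silent at 9 h. The genes lie on 16 scaffolds, some in short runs such as MSTRG.44583 to MSTRG.44585 on 1 scaffold, where MSTRG.44583, MSTRG.44584 and MSTRG.44585 changed by -2.16, -4.36 and -3.98. The last of these lost its call when replicate 1 or 3 of 9 h or replicate 3 of 0 h was left out. The gene models of 20 of them span fewer than 500 bp. All 17 lower genes and both higher ones, MSTRG.7773 (6.14, 6.83 and 5.88 CPM at 9 h, against 0.55, 0.443 and 0.357 CPM at 0 h) and CSS003587 (below 1 CPM in the means of both times, edgeR adjusted p = 0.0493), are among those 20. The call of CSS003587 was lost without any 1 library (edgeR adjusted p 0.0715 to 0.162), under the replicate block (0.0723), with library size alone (0.062) and with no filter on low counts (0.12). The 2 long models did not pass: MSTRG.31129 averaged 75.2 CPM at 9 h and 87.5 CPM at 0 h, and MSTRG.48891 10.2 CPM at 9 h and 8.23 CPM at 0 h (edgeR adjusted p = 0.104 and 0.0744). The sequences of these genes were not compared, and counts of single genes are uncertain if close copies share reads. The family was chosen after its values were seen.

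Genes that make catechins and other flavonoids, the bitter and astringent compounds of tea, leaned lower. Of 29 tested, 17 were lower and 1 higher (median -0.76), and the summed level was 346, 320 and 322 CPM at 9 h, against 912, 1000.4 and 972 CPM at 0 h. Flavonol synthase 1 (MSTRG.43497) was at 5.44, 4.34 and 4.69 CPM at 9 h, against 70.6, 82.8 and 72 CPM at 0 h (-3.96, SE 0.20). Genes of the chalcone synthase family, which makes the first step, were also lower, with 81.5, 72.7 and 65.3 CPM at 9 h, against 257, 279 and 273 CPM at 0 h for MSTRG.25281 (-1.88, SE 0.10) and -2.50 (SE 0.11) for MSTRG.14844. The higher gene was a leucoanthocyanidin dioxygenase (MSTRG.18741, 1.40 (SE 0.19)) of few counts, with means of 6.69 CPM at 9 h and 2.54 CPM at 0 h.

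The terpene and carotenoid list split evenly, with 32 higher and 33 lower of 92 (median -0.18), and its ends differed. Terpene synthases, which release the floral and resinous volatiles, held the largest falls: MSTRG.24732, of the 1,8-cineole type by its description, was at 0.656 to 1.07 CPM in the 9 h libraries and at 39.6 to 51.3 CPM in those of 0 h (-5.67, SE 0.46), and MSTRG.7429, described as terpene synthase 14, at 0.742, 0.994 and 0.689 CPM at 9 h, against 30.6, 46.6 and 37.6 CPM at 0 h (-5.57, SE 0.25). The similar genes MSTRG.33222 and MSTRG.38790 changed by -5.37 (SE 0.38) and -5.27 (SE 0.57). All 4 were at or near 1 CPM in each 9 h library and many times that in each 0 h library. The gene of the list with the most counts, which makes the last step of the plastid route to their precursors (MSTRG.27138), did not pass (-0.03, SE 0.09, edgeR adjusted p = 0.832). Upstream of both branches, a deoxyxylulose 5-phosphate synthase gene (MSTRG.10461), for the first step of the plastid route, rose, with 558, 524 and 469 CPM at 9 h, against 91.3, 103 and 103 CPM at 0 h (2.38, SE 0.10). Phytoene synthase (MSTRG.38156), the entry to carotenoids, was at 274, 261 and 284 CPM at 9 h, against 58.7, 59 and 65.6 CPM at 0 h (2.16, SE 0.10).

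Carotenoids are also the source of ABA, and ABA genes leaned higher. Of 72 genes of ABA synthesis, breakdown and core signalling, 33 were higher and 16 lower (median 0.48). Nine-cis-epoxycarotenoid dioxygenase 3 cuts a carotenoid in the rate-limiting step of ABA synthesis. Of its 3 tested genes, 2 were higher and 1 was lower. The higher ones were MSTRG.26007, at 390.2, 352 and 323 CPM at 9 h, against 168, 166 and 169 CPM at 0 h (1.08, SE 0.10), and MSTRG.35173, at 188, 167 and 150.3 CPM at 9 h, against 40.4, 43.1 and 43.5 CPM at 0 h (1.99, SE 0.15). Both had come down by 15 h, to 152 and 33.9 CPM. The enzyme numbered 4 (MSTRG.1853), which in Arabidopsis makes carotenoid volatiles and not ABA, changed by -3.16 (SE 0.21). Among 87 protein phosphatases 2C, a class of which only some members hold ABA signalling in check, 41 were higher and 18 lower (median 0.43). Highly ABA-induced PP2C gene 3 was higher in MSTRG.40750 (31.4, 30.3 and 32.3 CPM at 9 h, against 2.08, 2.77 and 2.95 CPM at 0 h) and MSTRG.2767 (475, 518 and 503 CPM at 9 h, against 97.5, 94.9 and 104 CPM at 0 h), and a further 2C phosphatase (MSTRG.50473) changed by 3.10 (SE 0.06).

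Protective proteins had the highest summed CPM of the 62 lists at 9 h. Of 40 late embryogenesis abundant (LEA) proteins and dehydrins, which are thought to shield proteins and membranes in drying cells, 24 were higher and 6 lower (median 1.41). Their summed level was 28477, 28601 and 26851 CPM at 9 h, against 5314, 5778 and 5922 CPM at 0 h. A single gene made up most of it. Dehydrin xero 1 (MSTRG.9070, Scaffold1618, 737076 to 738807, minus strand) was at 18096, 18464 and 17247 CPM at 9 h, against 2236, 2392 and 2516 CPM at 0 h, or 2.91 (SE 0.12) on the log2 scale, and was the gene with the most counts in each 9 h library. The next dehydrin (MSTRG.44795) was at 6502, 6294 and 5821 CPM at 9 h, against 1417, 1579.7 and 1637 CPM at 0 h (2.01, SE 0.09). The largest change of the list, 6.87 (SE 0.33), came in a LEA gene of few counts (MSTRG.19784), with 9.67, 9.55 and 10.2 CPM at 9 h, against 0.149, 0.0289 and 0.0765 CPM at 0 h. The stress protein metallothionein 2A (MSTRG.23235), also a gene of high counts, did not pass at 9 h (0.27, SE 0.12, edgeR adjusted p = 0.0737).

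Heat shock proteins and their factors were higher in 60 and lower in 38 of 160 genes (median 0.18), but in 47 and 50 with library size as the only scaling. An HSP70 gene (MSTRG.37139) was at 658, 607 and 599.5 CPM at 9 h, against 50.1, 52.4 and 50.7 CPM at 0 h (3.61, SE 0.09) and the one with the most counts (MSTRG.2303) at 2861, 2629 and 2513 CPM at 9 h, against 988, 1038 and 1054 CPM at 0 h (1.38, SE 0.08), whereas the small chaperone gene MSTRG.21188 and the DNAJ gene MSTRG.9678 changed by -4.81 (SE 0.28) and -4.08 (SE 0.17). The named HSP70 genes thus stood on the opposite side from these chaperones.

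Genes that move water and sugars leaned higher. Aquaporins, the water channels of membranes, were higher in 22 of 41 and lower in 5 (median 0.76), and their summed level was 6703, 7037 and 6380 CPM at 9 h, against 2959, 2830 and 3062 CPM at 0 h. The plasma membrane channel PIP1B (MSTRG.13512) was at 2349.5, 2627 and 2167 CPM at 9 h, against 584, 566 and 664 CPM at 0 h (1.98, SE 0.12), and PIP1;4 (MSTRG.41746) changed by 2.96 (SE 0.09). The 5 lower ones included 2 of the 3 genes named for the gamma tonoplast channel, MSTRG.350 and MSTRG.38835 (-0.94, SE 0.10 and -1.11 (SE 0.14)). The others were MSTRG.4631 (-0.69), MSTRG.48211 (-1.01) and the rare MSTRG.36546, with 1.35 CPM in the mean of 0 h. Sugar transporters were higher in 19 of 41 and lower in 9 (median 0.41), among them polyol and monosaccharide transporter 5 (MSTRG.22638, 2.57 (SE 0.11)) and sugar transporter 1 (MSTRG.40754, 514, 486 and 465 CPM at 9 h, against 276, 277 and 274 CPM at 0 h).

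Within sugar metabolism, some paralogs moved apart. Galactinol synthase starts the raffinose sugars, which gather in drying plant cells. Galactinol synthase 2 (MSTRG.42832, Scaffold655, 1185472 to 1188498, minus strand) was at 91.6, 93.5 and 84.1 CPM at 9 h, against 2.76, 3.24 and 1.98 CPM at 0 h (5.07, SE 0.15), while galactinol synthase 4 (MSTRG.25287) was at 51.5, 52.2 and 50.5 CPM at 9 h, against 430.0, 479 and 481 CPM at 0 h (-3.17, SE 0.09). The whole list for raffinose, sucrose and trehalose had 27 higher and 23 lower genes of 63 (median 0.17, negative with library size as the only scaling), and its summed level was 13264 ± 603 CPM at 9 h and 6213 ± 31.6 CPM at 0 h (SD, n = 3 each). Seed imbibition 2, an enzyme that in Arabidopsis splits raffinose, was higher in MSTRG.50398 (0.45, SE 0.07) and MSTRG.40983 (3.90, SE 0.12) and lower in its other 2 tested genes. For starch, 16 genes were higher and 20 lower of 54 (median -0.14). Beta-amylase 1, a plastid enzyme that releases maltose from starch, was higher in both of its genes: MSTRG.4333 was at 1582, 1468 and 1419.6 CPM at 9 h, against 241, 245 and 252 CPM at 0 h (2.60, SE 0.07), and MSTRG.6545 changed by 3.21 (SE 0.09). Beta-amylase 6 (MSTRG.38775) was at 0.925, 0.972 and 0.569 CPM at 9 h, against 25, 26 and 28.7 CPM at 0 h (-5.01, SE 0.44). Across the table, 395 of 3421 descriptions that at least 2 tested genes share had a member more than 2-fold higher and another more than 2-fold lower, both past the test. No expected share was computed, and a description shared by many genes meets this more readily. Adjacent genes of the same description moved in opposite directions in 5.25% of 705 pairs, against 14.4% of 16715 other adjacent pairs. Sequences within these pairs were not compared, and their counts are uncertain if close copies share reads.

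Genes of nitrogen metabolism changed by gene and not as a block. Of 41 genes of theanine, glutamine and glutamate metabolism, 16 were higher and 17 lower (median -0.23); theanine is the amino acid that gives tea its savoury taste. Asparagine synthase 1 (MSTRG.21058, Scaffold2648, 961598 to 966721, plus strand), which moves amide nitrogen of glutamine onto aspartate, was at 200.4, 196 and 192 CPM at 9 h, against 4.76, 4.36 and 4.57 CPM at 0 h, a log2 change of 5.42 (SE 0.07) and the lowest adjusted p of the named genes (1.75e-13 from edgeR). Arginine decarboxylase 2, on the way to polyamines, was higher in MSTRG.24406 (1688, 1636 and 1589.7 CPM at 9 h, against 328, 323 and 309.7 CPM at 0 h) and in MSTRG.49842 (1.73, SE 0.08). Glutamine synthase of clone R1 was lower in MSTRG.1757 (-0.92, SE 0.09) and higher in MSTRG.11376 (1.68, SE 0.10). Their means were 438 CPM at 9 h and 137 CPM at 0 h for MSTRG.11376 and 517 CPM at 9 h and 976 CPM at 0 h for MSTRG.1757. CsPDX2.1 (MSTRG.33795) encodes a glutaminase of vitamin B6 synthesis that the study examined for the breakdown of theanine. It was at 189.6, 202 and 170.3 CPM at 9 h, against 111, 115 and 116 CPM at 0 h (0.72, SE 0.11), with a gene model that overlaps another. The second pyridoxine biosynthesis 2 gene (MSTRG.9423) was near 2 CPM (1.13, SE 0.27, edgeR adjusted p = 0.00266).

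In the wider amino acid list 24 genes were higher and 27 lower of 92 (26.1 and 29.3%, close to the shares among all genes, median -0.13). Methionine gamma-lyase (MSTRG.44530), which breaks methionine down, was at 33.6, 34.9 and 30.8 CPM at 9 h, against 1.58, 1.56 and 1.57 CPM at 0 h (4.40, SE 0.10), serine acetyltransferase 2;1 (MSTRG.13214), on the way to cysteine, changed by 3.55 (SE 0.08), and aspartate aminotransferase 3 (MSTRG.51568) by 2.63 (SE 0.14). Transporters of amino acids and nitrogen had 31 higher and 33 lower of 119 (26.1 and 27.7%, again close to those shares, median -0.07). Nitrate transporter 2.4 (MSTRG.20115) fell to 0.136, 0.113 and 0.0766 CPM at 9 h, against 6.53, 7.09 and 7.66 CPM at 0 h, and peptide transporter 3 (MSTRG.22884) was at 2.54, 2.98 and 2.8 CPM at 9 h, against 121, 120.1 and 116 CPM at 0 h (-5.42, SE 0.18). An amino acid transporter (MSTRG.273) was at 125, 169.5 and 156 CPM at 9 h, against 9.96, 7.87 and 7.01 CPM at 0 h (4.18, SE 0.16), and lysine histidine transporter 1 (MSTRG.33349), with the most counts of the list, changed by 0.83 (SE 0.06).

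Jasmonate and lipoxygenase genes, which also lead to the green-leaf volatiles, had 13 higher and 20 lower of 47 (median -0.26). Lipoxygenase 2 (MSTRG.2052), the entry step and the gene with the most counts, was at 1003, 946 and 923 CPM at 9 h, against 1834, 1950.3 and 1931 CPM at 0 h (-0.99, SE 0.06). Allene oxide synthase (MSTRG.26946), which comes next on the jasmonate branch, was at 70.3, 66.1 and 63.1 CPM at 9 h, against 5.64, 5.92 and 5.53 CPM at 0 h (3.54, SE 0.10), and allene oxide cyclase 4 (MSTRG.33055), after it, at 13.1, 11.1 and 10.9 CPM at 9 h, against 71, 84 and 82.6 CPM at 0 h (-2.76, SE 0.13). The jasmonate repressor JAZ1 (MSTRG.49027) changed by 2.13 (SE 0.09). Of the 3 enzyme genes, MSTRG.2052 and MSTRG.33055 were thus lower and MSTRG.26946, between them in the pathway, was higher. For ethylene, 10 of 25 genes were higher and 11 lower (median -0.07), and the ethylene-forming enzyme MSTRG.47170 was at 2316, 2266 and 2377 CPM at 9 h, against 1004, 1196 and 1172 CPM at 0 h (1.04, SE 0.09). Growth hormones leaned lower, with 17 higher and 29 lower of 87 genes of gibberellin, cytokinin and brassinosteroid but a median of -0.01. Gibberellin 20-oxidase 2 (MSTRG.47296) and brassinosteroid-6-oxidase 1 (MSTRG.28524), late steps of synthesis, changed by -3.99 (SE 0.18) and -3.14 (SE 0.31). Auxin genes had 41 higher and 47 lower of 149 (median -0.17), or 27.5 and 31.5%, against 27.1 and 26.8% among all genes. An auxin efflux carrier (MSTRG.37866) changed by 2.66 (SE 0.07).

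Several lists of signalling and defence genes leaned higher. Calcium sensors and kinases were higher in 95 and lower in 38 of 223 (median 0.29). An EF-hand calcium-binding protein (MSTRG.17481) was at 129.6, 145 and 153 CPM at 9 h, against 12.7, 13.3 and 14.7 CPM at 0 h (3.39, SE 0.13), and a sodium/calcium exchanger (MSTRG.35474) at 4.68, 4.79 and 4.99 CPM at 9 h, against 203, 229 and 220.2 CPM at 0 h (-5.49, SE 0.21). The NADPH oxidase RBOHD (MSTRG.42454), which makes superoxide at the cell surface and is gated by calcium in Arabidopsis, was at 657, 649 and 610.5 CPM at 9 h, against 50.9, 52.5 and 47.5 CPM at 0 h (3.67, SE 0.08). Receptor-like kinases were higher in 249 and lower in 132 of 780 (median 0.32), and 59 of 134 pathogenesis-related, chitinase and glucanase genes were higher and 24 lower (median 0.36). Osmotin 34 was higher in 6 of 7 tested genes, among them MSTRG.47680 (28.9, 26.8 and 23.2 CPM at 9 h, against 1.98, 1.97 and 1.56 CPM at 0 h) and MSTRG.24252 (3.47, SE 0.22). NB-LRR genes, the intracellular receptors of plant immunity, had 123 higher of 480 (25.6%), close to the share among all genes, but 44 lower (9.17%), under that share. Their summed level was 4767, 4817 and 4830 CPM at 9 h, against 3539, 3135 and 3020 CPM at 0 h. One of them (MSTRG.18769) was at 229.8, 229 and 211 CPM at 9 h, against 23.6, 27 and 23.9 CPM at 0 h (3.17, SE 0.08).

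Transcription factor families differed in how their members divided. WRKY factors, which serve defence and senescence, had 50 higher and 12 lower of 79 (median 1.21), and NAC factors, of drought and senescence, 45 higher and 7 lower of 83 (median 1.01). The summed level of NAC genes was 6404, 6625 and 6316 CPM at 9 h, against 2007, 2092 and 2039 CPM at 0 h. A NAC gene (MSTRG.23775) was at 2154, 2294 and 2162 CPM at 9 h, against 303, 297 and 309 CPM at 0 h (2.86, SE 0.09). The bZIP family, which holds ABA-responsive factors, was higher in 29 and lower in 7 of 67 (median 0.45), and of 5 genes described as bZIP 53, 3 rose, MSTRG.10023 by 7.27 (SE 0.50) and MSTRG.44006 by 4.21 (SE 0.16) among them, and 1 fell. MYB factors had 53 higher and 37 lower of 158, AP2/ERF factors 54 higher and 38 lower of 144, homeobox factors 56 higher and 62 lower of 207, and GRAS factors 19 higher and 24 lower of 66. The bHLH family leaned lower, with 29 higher and 46 lower of 133 (median -0.25). Members picked for a large change went both ways within a family. Among AP2/ERF genes, MSTRG.49038 was at 129, 133 and 126 CPM at 9 h, against 8.42, 7.74 and 6.2 CPM at 0 h (4.11, SE 0.12). Ethylene response factor 1 (MSTRG.20805) was at 0.702, 1.36 and 1.08 CPM at 9 h, against 51.5, 52 and 60.8 CPM at 0 h (-5.72, SE 0.21). Among homeobox genes, MSTRG.38302 and MSTRG.32925 changed by 4.60 (SE 0.13) and 6.51 (SE 0.40), and homeobox protein 6 (MSTRG.27156), with the most counts, by -3.51 (SE 0.12).

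Most WRKY factors bind the W box, according to earlier work that the study cites. The study tested CsWRKY40 on a probe with a W box of the CsPDX2.1 promoter and on a mutant of it. Binding by the other WRKY genes of this comparison was not tested there. Both probes are shown because they spell out the element and its replacement. They were designed oligos of 30 bases from the supplement of the study, and the capitals, at bases 13 to 18, mark the W box and the bases that replaced it.
wild-type probe: tttatttaagaaTTGACCgtagataacttt
mutant probe: tttatttaagaaAAAAAAgtagataacttt
CsWRKY40 (MSTRG.6798, Scaffold146, 823418 to 826216, minus strand), described in the table as WRKY DNA-binding protein 18, was at 15.3, 14.8 and 13.8 CPM at 9 h, against 3.38, 5.08 and 3.37 CPM at 0 h (1.89, SE 0.22). Of 4 genes whose description is WRKY DNA-binding protein 40, 3 were higher, with 398, 417 and 414 CPM at 9 h, against 41.1, 40.2 and 37.3 CPM at 0 h for MSTRG.1888 (3.37, SE 0.08) and 167, 172 and 176 CPM at 9 h, against 15, 15.6 and 15.4 CPM at 0 h for MSTRG.49422 (3.49, SE 0.07) among them, and MSTRG.17282 was lower, with 159, 183 and 204 CPM at 9 h, against 418, 386 and 433 CPM at 0 h (-1.18, SE 0.10). The WRKY gene with the most counts (MSTRG.14831) was at 1006, 1019 and 936 CPM at 9 h, against 165, 173 and 171 CPM at 0 h (2.54, SE 0.07). The other factors that the study named also rose by 9 h: CsbZIP (MSTRG.22195) by 1.26 (SE 0.07), CsB3 (MSTRG.24832) by 1.47 (SE 0.11), CsbHLH (MSTRG.8952) by 2.42 (SE 0.17), CsGRAS (MSTRG.35117) by 0.80 (SE 0.08) and CsZF (MSTRG.49989, with a gene model that overlaps another) by 1.05 (SE 0.12). The study chose these factors on the same libraries, so their rise is not independent evidence of a direction.

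Lists for protein breakdown differed among themselves. Proteasome subunits, which form the protease for ubiquitin-tagged proteins, were higher in 29 and lower in 6 of 64 (median 0.22), but higher in 13 and lower in 14 with library size as the only scaling. The one with the most counts (MSTRG.48567) changed by 0.54 (SE 0.06). RING and U-box ubiquitin ligases were higher in 131 and lower in 79 of 343, but in 99 and 106 with library size as the only scaling. Plant U-box 23, a brake on immune signalling in Arabidopsis, was higher in MSTRG.31076 (139.9, 141 and 132 CPM at 9 h, against 8.02, 7.84 and 7.93 CPM at 0 h) and in MSTRG.9814 (3.73, SE 0.12). F-box proteins had 52 higher and 67 lower of 304 (median -0.21), with 616, 652 and 701 CPM at 9 h, against 114, 113 and 118 CPM at 0 h for the one with the most counts (MSTRG.48254). Proteases and autophagy genes were split, 63 higher and 66 lower of 217 (29.0 and 30.4%, close to the shares among all genes). An aspartyl protease gene (MSTRG.20946) was at 191, 184 and 150.4 CPM at 9 h, against 8.51, 9.14 and 9.17 CPM at 0 h (4.29, SE 0.12), whereas the subtilases, secreted serine proteases, were lower in 16 of 24 and higher in 5, with -6.56 (SE 0.57) for MSTRG.9452. The plastid protease FTSH 6 (MSTRG.13282), which was at 13.8, 14.3 and 12.8 CPM at 9 h, against 0.0459, 0.0866 and 0.128 CPM at 0 h, had one of the largest rises of the table (7.29, SE 0.36).

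Glycolysis and fermentation genes were higher in 48 and lower in 28 of 127, but in 34 and 38 with library size as the only scaling. Phosphoenolpyruvate carboxykinase 1 (MSTRG.1503), which leads carbon from organic acids back to sugar, was at 496, 484 and 482 CPM at 9 h, against 104, 112 and 113 CPM at 0 h (2.15, SE 0.07). Pyruvate dehydrogenase kinase (MSTRG.37431), which shuts the entry to the citric acid cycle, changed by 1.88 (SE 0.09). Mitochondrial respiration as a whole was even, with 33 higher and 32 lower of 142 (median 0.02), but 23 higher and 47 lower with library size as the only scaling. The alternative oxidases, which pass electrons to oxygen without making ATP, again moved apart: alternative oxidase 1A (MSTRG.1857) was at 412, 408 and 387 CPM at 9 h, against 67.1, 80.0 and 75.6 CPM at 0 h (2.44, SE 0.09), and MSTRG.32838 of the same family at 106, 104 and 119 CPM at 9 h, against 408, 432 and 503 CPM at 0 h (-2.02, SE 0.09). Among redox enzymes 53 were higher and 91 lower of 247 (median -0.21), and a peroxidase gene (MSTRG.826) changed by -3.87 (SE 0.17).

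Cell wall and phenolic genes were led by laccases, copper enzymes that join lignin units. The list for shikimate, phenylpropanoids and lignin had 50 higher and 37 lower of 120, and a summed level of 6877 ± 322 CPM at 9 h and 3832 ± 118 CPM at 0 h (SD, n = 3 each). Laccase genes MSTRG.10839 and MSTRG.33660 were at 1948, 1876 and 1563 CPM at 9 h, against 104, 111 and 116 CPM at 0 h (4.02, SE 0.10), and at 812, 1055 and 901 CPM at 9 h, against 36.3, 50.4 and 46.9 CPM at 0 h (4.37, SE 0.23). Of the 70 genes listed as markers of xylem and secondary wall, 39 are laccases, of which 24 were higher and 3 lower. The summed level of the other 31 was 248 to 303 CPM at 9 h and 267 to 289 CPM at 0 h, with 6 higher and 6 lower. The rises on that list were thus mostly those of laccases. Xyloglucan endotransglycosylase 6 (MSTRG.39718), which cuts and rejoins wall chains, was at 849, 829.7 and 845 CPM at 9 h, against 120.4, 126 and 122 CPM at 0 h (2.78, SE 0.07), in a list of expansins and xyloglucan enzymes with 27 higher and 22 lower of 81 (24 and 25 with library size as the only scaling). Wax, cutin and lipid transfer genes were higher in 45 and lower in 16 of 100 (median 0.48). Phospholipase D alpha 1 (MSTRG.18630), which makes the lipid signal phosphatidic acid, was at 1078, 999 and 962 CPM at 9 h, against 508, 506 and 505 CPM at 0 h, and fatty acid desaturase 8 (MSTRG.48433), a plastid enzyme, changed by -2.98 (SE 0.11).

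Enzymes that attach or release sugars on small molecules help to set which tea volatiles are free. UDP-glycosyltransferases had 75 higher and 94 lower of 268 (median -0.36), with 118, 120.2 and 114 CPM at 9 h, against 6.72, 5.85 and 5.85 CPM at 0 h for MSTRG.13477, described as UDP-glucosyl transferase 85A2 (4.26, SE 0.08). Beta-glucosidases, which cut the sugar off, had 18 higher and 9 lower of 42 (median 0.44). Their gene with the most counts (MSTRG.2043) was at 589, 1672 and 608 CPM at 9 h, against 46.7, 240.3 and 247 CPM at 0 h (2.43, SE 0.54, edgeR adjusted p = 0.00199), so its libraries spread widely within each time. Cytochrome P450s were higher in 72 and lower in 60 of 232, but in 61 and 70 with library size as the only scaling, and a member of subfamily 71B (MSTRG.16332) changed by 4.58 (SE 0.18). Glutathione S-transferases had 22 higher and 28 lower of 94 (23.4 and 29.8%, against 27.1 and 26.8% among all genes).

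Among large rises of described genes outside the lists were those of a cupin gene (MSTRG.6554), with 206, 211 and 229.9 CPM at 9 h, against 3.89, 3.69 and 4.35 CPM at 0 h (5.76, SE 0.10), and of aldehyde dehydrogenase 2B7 (MSTRG.18399), with 32.4, 38.1 and 37.5 CPM at 9 h, against 1.5, 1.17 and 1.39 CPM at 0 h (4.73, SE 0.15). A transporter of the major facilitator superfamily (MSTRG.33749) had one of the largest falls, with 0.646, 0.972 and 0.908 CPM at 9 h, against 68.7, 58.3 and 45.2 CPM at 0 h (-6.10, SE 0.32). In several genes 1 library departed from its group. Rotamase cyclophilin 5 (MSTRG.41678) was at 10.7, 8.36 and 1626 CPM at 9 h, against 8.25, 7.79 and 7.18 CPM at 0 h, or 6.15 (SE 2.22) on the log2 scale with an edgeR adjusted p of 0.0321, and without replicate 3 of 9 h it was 0.30 with an adjusted p of 0.899. Calcium-dependent protein kinase 24 (MSTRG.28672) was at 0.183, 12.5 and 15.3 CPM at 9 h, against 0.0229, 0.0192 and 0.0255 CPM at 0 h (8.61, SE 2.51, edgeR adjusted p = 0.0108), with replicate 1 of 9 h far under both others. Fatty acid desaturase A (MSTRG.41298) and a C2H2 zinc finger gene (MSTRG.37396) were similar cases, with 25.6, 24.8 and 3.38 CPM at 9 h, against 0.47, 0.963 and 1.05 CPM at 0 h for MSTRG.41298, and 208, 56.9 and 156 CPM at 9 h, against 13.9, 11 and 14.3 CPM at 0 h for MSTRG.37396.

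**Figure D3:**
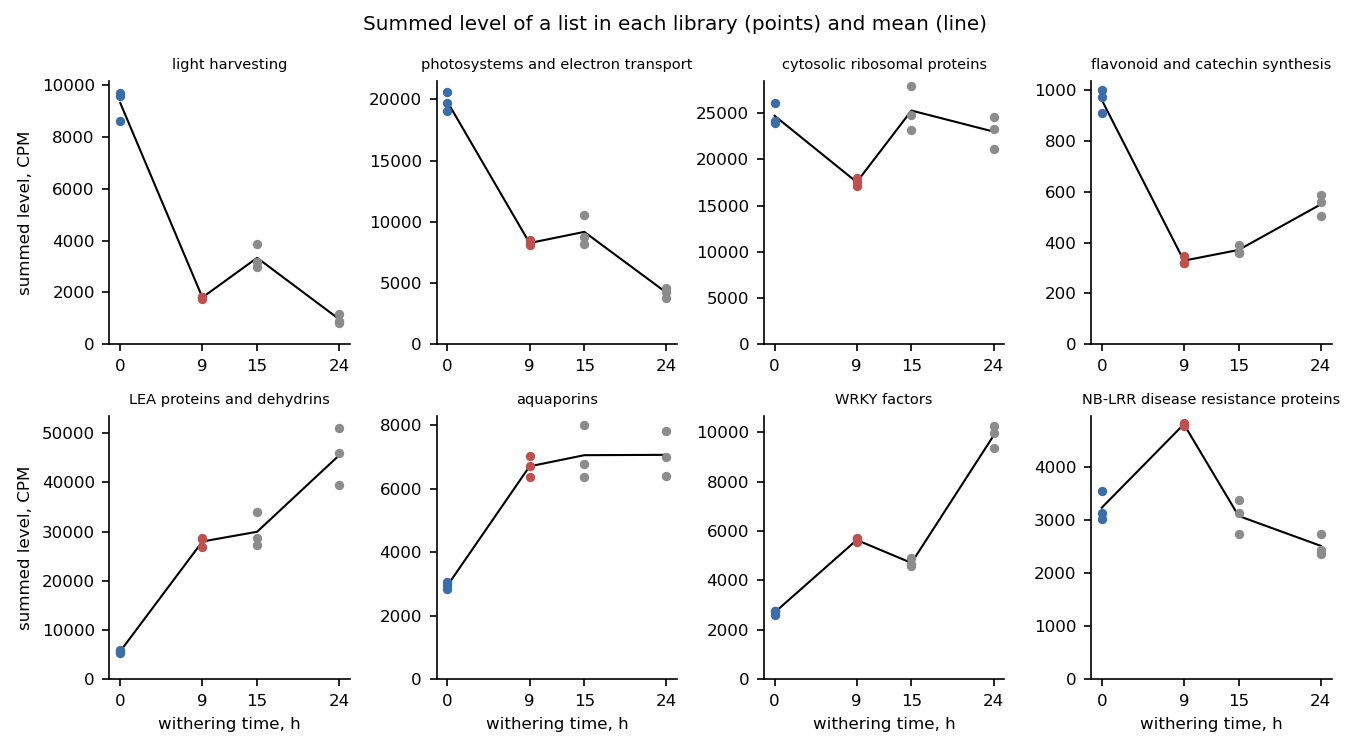
Summed level in CPM of 8 lists at 0, 9, 15 and 24 h, with points for libraries and a line through the means. Light-harvesting genes fall by 9 h, gain in part by 15 h and are lowest at 24 h. Ribosomal protein genes are back near their 0 h level at 15 h, and LEA genes and dehydrins lie at 26851 to 28601 CPM at 9 h, 27166 to 34024 CPM at 15 h and 39497 to 51133 CPM at 24 h.

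The step was not simply the start of a steady course. At 15 h against 9 h, a comparison that shares the 9 h libraries with this one, 5286 genes (19.8%) were higher and 4825 (18.1%) lower. Ribosomal protein genes were higher in 155 and lower in 16 of 293 in that later step (median 0.45), and summed to 24719 CPM at 0 h, 17543 CPM at 9 h and 25288 CPM at 15 h. Light-harvesting genes were higher in 15 and lower in 1 of 28, with sums of 9301, 1805 and 3332 CPM at 0, 9 and 15 h. NB-LRR genes were higher in 11 and lower in 148 of 480 (median -0.59), and NAC genes higher in 11 and lower in 31 of 83. The summed level of NAC genes was 6448 CPM at 9 h and 7323 CPM at 15 h. Mitochondrial respiration genes, even at 9 h, were higher in 71 and lower in 3 of 142 at 15 h.

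The last step of the series, 24 h against 15 h, shares no library with the first, and 6913 genes (25.9%) were higher and 8223 (30.8%) lower in it. Of the genes that were higher at 9 h than at 0 h, 3501 (48.4%) were again higher at 24 h than at 15 h, and 1591 (22.0%) were lower. Of those lower at 9 h, 3394 (47.4%) were lower again and 1195 (16.7%) higher. Read the other way, 50.6% of the genes higher at 24 h had been higher at 9 h, and 41.3% of those lower at 24 h had been lower at 9 h. Light-harvesting genes were mostly lower in that step too (24 of 28), and of 312 PPR genes 133 were lower and 23 higher. The summed level of PPR genes was 1558 CPM at 15 h and 2135 CPM at 24 h. NB-LRR genes were lower in 221 of 480 at 24 h and higher in 31.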

How the data were processed

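According to the submitters' processing notes, reads of the 12 leaf libraries were checked and trimmed (FastQC 0.10.1 and Trimmomatic are listed) and went through HISAT2 2.0.5 as well as StringTie 1.3.1. The authors deposited their raw gene counts, whole numbers without normalization, as a single table with a column per library. Scaffold positions are those of that table, for which the genome build is not given in the sources used here, nor is the setting for strand. Also missing from them is how reads were counted. Multiples of 4 made up 32.2% of values from 1 to 40, where an even spread gives 25.0%, so 1 fragment may carry several counts. Antisense and overlapping genes cannot be told apart without strand.

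Genes were tested with edgeR 4.0.16 (R 4.3.3; TMM, filterByExpr by time, quasi-likelihood fit of all 12 libraries with time as a factor, Benjamini-Hochberg adjustment over all genes, threshold 0.05). The SE is the size of the log2 fold change divided by the square root of F. Tables and figures were made in Python 3.11.15. The script was tested on simulated data in which few genes changed. It called 24 of 67 genes changed by 1.5-fold, 42 of 67 changed by 2-fold and 60 of 66 changed by 4-fold. It also called 10 unchanged genes. No pair of libraries of 9 h or of 0 h differed by less than the sampling noise, in the mean over genes past a minimum count. Genes of many counts weigh most in that mean, so the part of counting error in a typical gene was not measured.

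The comparison, the gene lists, which match words of the descriptions, and the genes named were chosen with earlier results of these data known. The rule named the 20 largest rises and 20 largest falls at 9 h among described genes past the test whose higher group averaged 10 CPM or more and whose libraries did not overlap, per list the 4 largest changes among members of 5 CPM or more and the member with the most counts, the 10 genes with the most counts at each time, and the genes the study names. Not all are printed. Outside the rule, and chosen after their values were seen, are the members of the wound-responsive family, the members that moved against or did not follow a list where these were few, and MSTRG.46001, MSTRG.13979, MSTRG.20180, MSTRG.39340, MSTRG.10461, MSTRG.38156, MSTRG.26007, MSTRG.35173, MSTRG.1757, MSTRG.11376, MSTRG.17282 and MSTRG.48754. Same-numbered libraries of 9 h and 0 h did not deviate together over all genes tested, and were treated as unpaired. Alternatives were DESeq2 1.42.0, its size factors, library size alone, other filters, only 6 libraries, a replicate block, a fold of at least 2, each library left out, other matching of lists and, added after the values were seen, counts divided by 4 and lists without later exclusions.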

Additional observations from a re-analysis of the deposited data

How the results depend on the processing

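The counts at 9 h against 0 h kept within 1.5 times of 7240 higher and 7166 lower in each alternative except a test against a fold of at least 2, which called 4036 genes, 2241 higher and 1795 lower. DESeq2 called 7524 higher and 7503 lower, library size alone 5641 and 9228, and counts divided by 4, an alternative chosen after the data were seen, 7260 and 7724. Leaving out 1 library at a time called 12890 to 13198 genes (6591 to 6728 higher, 6295 to 6477 lower), and for 24 h against 15 h it called 13568 to 15131. With library size alone, 4137 genes were higher at 24 h than at 15 h and 13 proteasome genes higher at 9 h, and the cause was not tested. Restricting lists to members of at least 5 CPM, which leaves fewer genes, gave 93 lower PPR genes, 13 higher LEA genes and 80 higher NB-LRR genes. The replicate number as a block called 7084 higher and 6969 lower. Over all genes tested, deviations of same-numbered libraries from the means of their times were close to uncorrelated (-0.021, 0.016 and -0.008). Such correlations also hold the noise of genes of few counts, and cannot tell if same-numbered libraries share a lot of shoots. Of 170 named genes, 158 kept their side of the threshold in each alternative in which they were tested, other than the fold test, under which 34 lost the call. Calls were lost by MSTRG.41678 (adjusted p 0.899 without replicate 3 of 9 h, 0.0891 to 0.0923 without a replicate of 0 h, 0.21 with the block), MSTRG.44585 (0.074 to 0.0896 without replicate 1 or 3 of 9 h or replicate 3 of 0 h) and the rare MSTRG.22467, MSTRG.3051 and CSS003587. Calls were gained by CSS021240, MSTRG.23235, MSTRG.27138, MSTRG.30137, MSTRG.31129, MSTRG.42403 and MSTRG.48891. DESeq2 gave no adjusted p for MSTRG.41678. No named gene that passed the test changed sign in an alternative.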

Other observations

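Neighbouring genes of the same description tended to share a direction at 9 h. Among 705 pairs of adjacent tested genes that share a description, do not overlap and lie within 100000 bp of each other, 91 were both higher and 67 both lower than at 0 h (22.4% of pairs), and 37 (5.25%) moved in opposite directions. Among 16715 adjacent pairs of other genes, 1384 were both higher, 1426 both lower (16.8%) and 2415 opposite (14.4%). Genes that share a description were not compared by sequence, and if close copies share reads, their directions are not independent.

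Gene models of higher genes spanned a median of 4669 bp and those of lower genes 3839 bp, against 3816 bp over all genes tested. Of 31146 genes with a count at either time, 1822 were counted at 9 h and in none of the 0 h libraries, and 1155 at 0 h and in none of the 9 h libraries. None of these reached a mean of 5 CPM, so no gene of that level was counted at one time only. Of 16643 genes with a mean of at least 5 CPM, 15 had libraries over 10-fold apart at 9 h and 16 at 0 h.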
